A study of Mus musculus with 49 samples.

Results

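The genes described here are 10 genes of major histocompatibility complex (MHC) class I antigen presentation: the heavy chains H2-D1 and H2-K1, the light chain B2m, the peptide transporter genes Tap1 and Tap2, the tapasin gene Tapbp, the immunoproteasome subunit genes Psmb8, Psmb9 and Psmb10, and the class I transactivator Nlrc5. They were taken by symbol from a neocortical RNA-seq count table of 45252 genes, and all 10 were among the 18220 genes with enough counts to be tested. Transcripts were counted in 49 rNLS8 or littermate mice, and the study asked what vaccination against TDP-43 peptides does to the gene expression that follows transgene induction.

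The rNLS8 mice were bigenic. One transgene drives the tetracycline transactivator from the NEFH promoter, which is active in neurons, and the other places a human TDP-43 lacking its nuclear localization signal under that transactivator. All mice were on a mixed C57BL/6J and C3H/HeJ background that came from hybrid parents, so littermates can differ at any locus where these strains differ. Doxycycline, which holds the transgene off, was removed at 25.5 weeks of age, and the mice were killed at 28.5 weeks, 3 weeks later. Vaccination started at 8 weeks. Monogenic littermates that received PBS were the controls (ctrl PBS, n = 17, 10 females and 7 males), and bigenic mice received PBS (TDP-PBS, n = 10, 4 females and 6 males), 40 µg of peptides 10 and 12 (TDP10+12, n = 10, 6 females and 4 males) or 40 µg of peptide 15, which holds the phosphorylated serines of the TDP-43 C-terminus (TDP15, n = 12, 5 females and 7 males). The peptides were coupled to ovalbumin and given with a CpG oligonucleotide, with Alhydrogel as the adjuvant in the regimen of these mice, in monthly injections before induction and 1 after it. In both PBS groups, PBS took the place of the conjugate, and the sources used here do not say whether the adjuvants were given with it. Because no control mouse received peptide, vaccination and genotype were not crossed in these libraries. The mice were perfused before dissection, and each library came from 1 mouse.

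Class I molecules display peptides from a cell's own proteins at its surface, where CD8 T cells and some NK cell receptors read them. Peptides are cut by the proteasome, carried into the endoplasmic reticulum by the Tap1 and Tap2 transporter, and loaded with the help of tapasin onto a heavy chain paired with B2m. In inflamed tissue the catalytic subunits Psmb5, Psmb6 and Psmb7 can be replaced by Psmb8, Psmb9 and Psmb10, which gives the immunoproteasome. Interferons induce most of these genes through interferon regulatory factors, and NLRC5 acts on the SXY module of class I promoters. Healthy brain tissue shows little class I expression, and microglia and endothelium are among its better known sources.

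Most of the genes lie in the H2 complex on chromosome 17 (GRCm38.p6 coordinates, RefSeq). From the centromere side the first 6 are Tapbp (chr17:33919478-33929290), H2-K1 (chr17:33996012-34000619), Psmb9 (chr17:34182030-34187330), Tap1 (chr17:34187556-34197225), Psmb8 (chr17:34198195-34201454) and Tap2 (chr17:34204479-34216321). H2-D1 lies farther along in the same complex (chr17:35263094-35267497). B2m is on chromosome 2 (chr2:122147687-122153082), and Nlrc5 (chr8:94434335-94527272) and Psmb10 (chr8:105935728-105938392) are on chromosome 8. Psmb9 and Tap1 are transcribed away from each other, and 225 bases separate their starts.

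Promoters are shown for a heavy chain, the light chain, the shared Psmb9 and Tap1 start, Tapbp and Psmb8, and for Psmb10, which was not higher in rNLS8 mice. The RefSeq promoter table (GRCm38.p6) held 8 of the 10 genes, without Tap2 and Nlrc5. Only bases before the annotated start are printed, 5′ to 3′ on the strand of the gene named, and capitals mark matches to the motifs GAAANNGAA and GAANNGAAA (interferon response element cores), TTCNNNGAA (STAT), GGGNNTTCC (kappa B), CCAAT (Y box) and TGACG (X2 box) on either strand, with the opposite strand read as its complement. The line for Psmb9 and Tap1 holds their shared bases on the Tap1 strand.
H2-D1 (chr17:35262844-35263093, plus strand): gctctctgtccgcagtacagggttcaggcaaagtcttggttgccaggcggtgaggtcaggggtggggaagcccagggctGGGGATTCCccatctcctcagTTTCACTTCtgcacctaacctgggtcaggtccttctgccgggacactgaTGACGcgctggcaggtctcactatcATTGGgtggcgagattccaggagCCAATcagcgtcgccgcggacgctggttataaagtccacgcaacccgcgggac
B2m (chr2:122147437-122147686, plus strand): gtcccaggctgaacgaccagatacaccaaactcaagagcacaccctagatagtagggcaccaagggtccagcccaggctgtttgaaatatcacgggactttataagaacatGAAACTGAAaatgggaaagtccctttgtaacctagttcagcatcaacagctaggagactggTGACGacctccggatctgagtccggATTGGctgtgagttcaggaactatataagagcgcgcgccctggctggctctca
Psmb9 and Tap1 (chr17:34187331-34187555, plus strand): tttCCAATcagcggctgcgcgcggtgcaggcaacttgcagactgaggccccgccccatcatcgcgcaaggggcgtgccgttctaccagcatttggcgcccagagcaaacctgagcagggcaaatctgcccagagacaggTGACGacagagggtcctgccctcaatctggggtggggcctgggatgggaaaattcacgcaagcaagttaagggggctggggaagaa
Tapbp (chr17:33919228-33919477, plus strand): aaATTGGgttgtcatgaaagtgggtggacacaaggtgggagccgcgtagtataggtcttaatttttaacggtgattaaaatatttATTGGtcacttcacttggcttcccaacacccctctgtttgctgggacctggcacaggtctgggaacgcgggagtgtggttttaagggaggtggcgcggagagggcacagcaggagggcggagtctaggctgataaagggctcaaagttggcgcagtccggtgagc
Psmb8 (chr17:34197945-34198194, plus strand): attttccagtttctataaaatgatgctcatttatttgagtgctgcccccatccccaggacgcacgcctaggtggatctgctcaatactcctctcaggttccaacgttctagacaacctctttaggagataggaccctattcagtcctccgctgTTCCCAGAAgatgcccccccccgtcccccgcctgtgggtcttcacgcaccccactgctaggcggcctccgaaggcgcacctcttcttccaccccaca
Psmb10 (chr8:105938393-105938642, minus strand): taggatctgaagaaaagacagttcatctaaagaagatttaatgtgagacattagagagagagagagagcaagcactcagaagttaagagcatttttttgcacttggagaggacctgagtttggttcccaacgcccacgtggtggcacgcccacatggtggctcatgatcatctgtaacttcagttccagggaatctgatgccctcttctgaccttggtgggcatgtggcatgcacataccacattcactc

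In the H2-D1 sequence the kappa B match lay 163 to 171 bases before the start, the interferon response element match 142 to 150, the X2 box match 97 to 101 and the Y box matches 72 to 76 and 49 to 53. B2m had an interferon response element match at 131 to 139 bases, an X2 box match at 74 to 78 and a Y box match at 49 to 53. The shared Psmb9 and Tap1 bases held 1 Y box and 1 X2 box match. Tapbp held only Y box matches, at 244 to 248 and 161 to 165 bases. Psmb8 held only the STAT match, at 89 to 97, and the Psmb10 sequence held none of the 6 motifs. The motif TTCNNNGAA is the same on both strands, so the Psmb8 match is found on either. No matches to different motifs overlapped. Among the 8 genes with a promoter, the Y box letters were found in 6 and the X2 box letters in 5, against 34.5% and 17.9% of 27025 mouse promoters of the same length. GGGNNTTCC was found in 2 (H2-D1 and H2-K1; 4.88% of all promoters), GAANNGAAA in the same 2 (6.34%), GAAANNGAA in 1 (B2m; 7.16%) and TTCNNNGAA in 1 (Psmb8; 7.18%). The motif GAANNGAAA was added after the data were seen. Tap1 and Psmb9 share their matches, so these count under both. A match describes letters in these 250 bases and is not a binding site.

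Library totals were 17775738 to 21033608 counts, so 3 counts corresponded to 0.139 to 0.165 CPM, the count relative to library size. No 2 libraries of the same group held identical values. The mouse Tardbp gene, which is not the human transgene, was at 120 to 160 CPM in ctrl PBS mice and at 91.9 to 142 CPM in the 3 rNLS8 groups. The cortical neuron markers were high in every group, with Snap25 at 1434 CPM or more in each mouse. Levels below are TMM-normalized CPM, given as lowest, median and highest mouse, and fold changes are log2 values with their standard error from edgeR's quasi-likelihood test, with p-values adjusted by Benjamini-Hochberg over the 18220 genes. All p-values measure spread between mice.

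Of the 10 genes 9 were above the ctrl PBS level in TDP-PBS mice, and Psmb10 was the exception. The rise was between 0.92 (Tap2) and 1.81 (Psmb8) on the log2 scale. Over all genes tested 21.9% were called higher and 21.6% lower in this comparison, and the median log2 fold change was 1.50 for the 10 genes against -0.00 for all genes. In TDP15 mice 9 of the 10 were higher than in ctrl PBS (23.6% of all genes higher, 23.2% lower, member median 1.67). In TDP10+12 mice 8 were higher, Psmb10 was lower and H2-D1 did not pass the test (20.8% higher, 20.0% lower, member median 1.26). The 3 comparisons share the same 17 ctrl PBS mice. In bulk tissue, more cells of a type and more RNA per cell cannot be told apart.

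**Figure D1:**
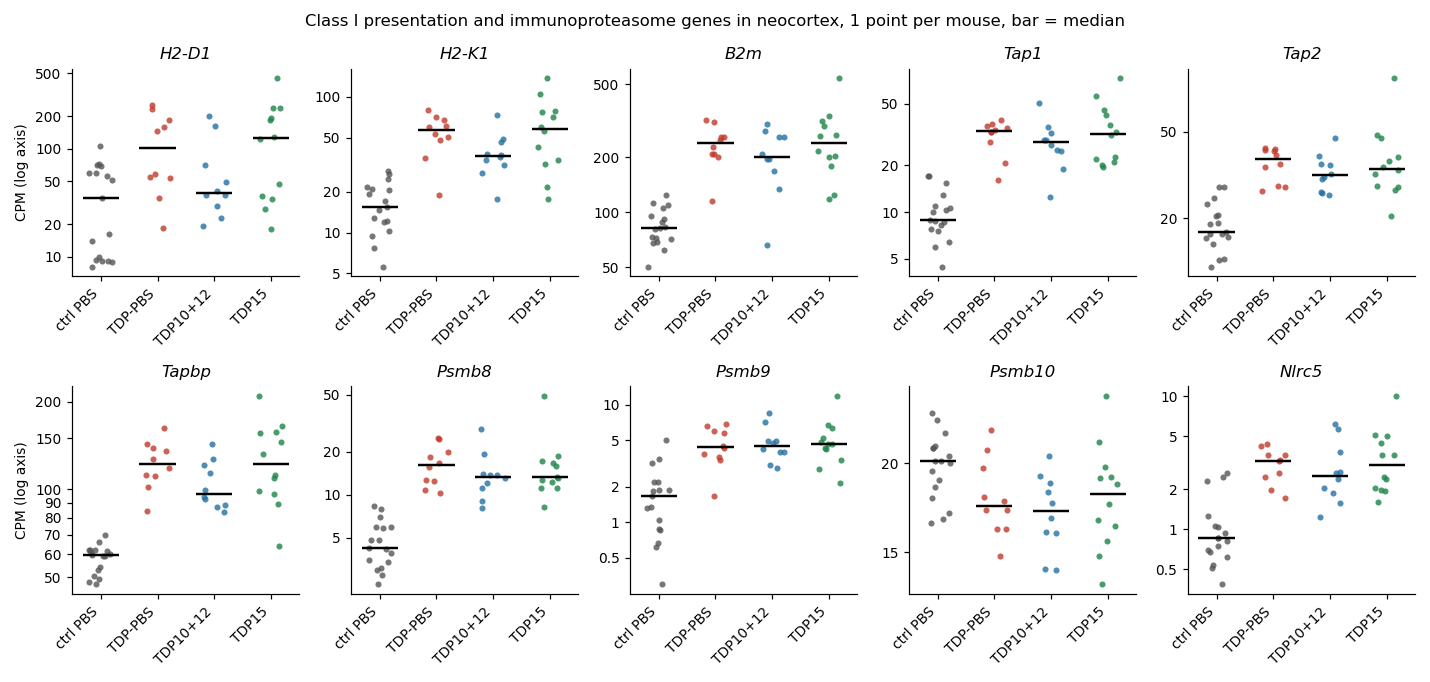
CPM of the 10 genes on log axes that differ between panels, with 1 point per mouse and a bar at the group median, for the 4 groups (n = 17, 10, 10 and 12 from left to right). In 9 panels the points show higher medians in all 3 rNLS8 groups, Psmb10 lies slightly lower, and H2-D1 falls into an upper and a lower set of mice in every group.

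H2-K1, the heavy chain encoded at the K end of the complex, ranged from 5.62 to 28.3 CPM in ctrl PBS mice with a median of 15.4. In TDP-PBS mice it ranged from 18.7 to 79.2 (median 56.3), in TDP10+12 from 17.8 to 73.2 (median 36.7) and in TDP15 from 17.7 to 137 (median 57.8). Each rNLS8 group overlapped the controls through a few low mice, and 27 of 32 rNLS8 mice were above every control. The log2 fold changes against ctrl PBS were 1.72 ± 0.25 (SE), 1.25 ± 0.25 and 1.89 ± 0.24 in TDP-PBS, TDP10+12 and TDP15 (edgeR adjusted p = 6.6e-08, 4.4e-05 and 2.1e-09).

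H2-D1, the heavy chain of the D end, had by far the widest spread. In ctrl PBS mice it ranged from 8.09 to 107 CPM (median 35.1), in TDP-PBS from 18.5 to 255 (median 102), in TDP10+12 from 19.2 to 199.7 (median 38.9) and in TDP15 from 17.9 to 452 (median 125). The groups overlapped over most of their range, and 14 of 32 rNLS8 mice were above every control. H2-D1 was higher in TDP-PBS (1.61 ± 0.47, edgeR adjusted p = 0.0039) and in TDP15 mice (1.87 ± 0.45, adjusted p = 0.00050). In TDP10+12 mice the difference was 0.77 ± 0.47, with a 95% interval of -0.18 to 1.72 and an adjusted p of 0.20.

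B2m, the invariant light chain that every classical class I molecule needs, was the most abundant of the genes. It ranged from 50.6 to 124 CPM in ctrl PBS mice (median 81.6), from 115 to 319.8 in TDP-PBS (median 238), from 65.9 to 304 in TDP10+12 (median 201) and from 118 to 541 in TDP15 (median 239). In each rNLS8 group 1 mouse lay within the control range and the other 29 lay above it. The log2 fold changes were 1.47 ± 0.18, 1.28 ± 0.18 and 1.59 ± 0.17 (edgeR adjusted p = 1.5e-09, 5.7e-08 and 5.3e-11).

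Tap1 and Tap2 encode the 2 chains of the peptide transporter, and both were higher in every rNLS8 group. Tap1 ranged from 4.45 to 17.1 CPM in controls (median 8.90) and from 16.1 to 39.2 in TDP-PBS mice (median 33.4), with a log2 fold change of 1.63 ± 0.20. Tap2 ranged from 12.0 to 27.9 CPM in controls (median 17.3) and from 26.6 to 42.1 in TDP-PBS (median 37.3), with 0.92 ± 0.15. In TDP10+12 and TDP15 mice Tap1 ranged from 12.6 to 50.8 (median 28.1) and from 19.7 to 73.3 (median 32.1), with 1.51 ± 0.20 and 1.81 ± 0.19. Tap2 ranged there from 25.5 to 46.9 (median 31.5) and from 20.6 to 87.9 (median 33.7), with 0.80 ± 0.15 and 1.03 ± 0.14. All 6 differences passed the test (largest edgeR adjusted p = 1.5e-05, for Tap2 in TDP10+12). Every TDP15 mouse was above every control for Tap1, and 30 of 32 rNLS8 mice were for Tap1 against 24 of 32 for Tap2. The difference between the 2 rises was not tested.

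Tapbp, which bridges the transporter and the empty class I molecule, gave the cleanest separation. Controls lay between 47.2 and 69.5 CPM (median 59.4), TDP-PBS mice between 84.0 and 163 (median 123) and TDP10+12 mice between 83.7 and 144 (median 96.8). Both of these groups lay wholly above the controls, and 1 TDP15 mouse at 63.8 CPM did not, in a group that reached 209.7 (median 122). The log2 fold changes were 1.09 ± 0.11, 0.86 ± 0.11 and 1.15 ± 0.11 (edgeR adjusted p = 1.7e-11, 1.3e-08 and 8.1e-13).

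Among the immunoproteasome subunits, Psmb8 rose most. It ranged from 2.35 to 8.31 CPM in ctrl PBS mice (median 4.19), from 10.2 to 25.0 in TDP-PBS (median 16.1), from 8.09 to 28.9 in TDP10+12 (median 13.4) and from 8.17 to 49.2 in TDP15 (median 13.2). All 10 TDP-PBS mice and 30 of 32 rNLS8 mice were above every control. The log2 fold changes were 1.81 ± 0.22, 1.59 ± 0.22 and 1.81 ± 0.21 (edgeR adjusted p = 9.0e-10, 2.8e-08 and 2.5e-10). Psmb9 was the lowest of the 3, at 0.296 to 5.01 CPM in controls (median 1.66) and at 1.66 to 6.90 (median 4.36), 2.88 to 8.47 (median 4.48) and 2.14 to 11.9 CPM (median 4.64) in TDP-PBS, TDP10+12 and TDP15. Its log2 fold changes were 1.37 ± 0.27, 1.43 ± 0.26 and 1.50 ± 0.25 (edgeR adjusted p = 2.6e-05, 1.4e-05 and 1.9e-06), but 22 of the 32 rNLS8 mice lay within the control range.

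Psmb10, the third immunoproteasome subunit, did not follow the other 2. It ranged from 16.5 to 23.5 CPM in controls (median 20.1), from 14.8 to 22.2 in TDP-PBS (median 17.4), from 14.2 to 20.4 in TDP10+12 (median 17.2) and from 13.5 to 24.8 in TDP15 (median 18.1). The groups overlapped and all 3 medians were below that of the controls. The differences were -0.14 ± 0.07 in TDP-PBS (adjusted p = 0.12, edgeR), -0.21 ± 0.07 in TDP10+12 (adjusted p = 0.018) and -0.13 ± 0.07 in TDP15 (adjusted p = 0.12), so only the fall in TDP10+12 was called. That call was lost without TDP10+12 replicate 5 or replicate 8 (adjusted p up to 0.063), and without TDP15 replicate 3 the fall in TDP15 passed the test (-0.18, adjusted p = 0.0235, edgeR).

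Nlrc5, the transactivator that acts on class I promoters, was scarce. It ranged from 0.385 to 2.63 CPM in ctrl PBS mice (median 0.854), from 1.71 to 4.35 in TDP-PBS (median 3.28), from 1.23 to 6.17 in TDP10+12 (median 2.52) and from 1.59 to 10.1 in TDP15 (median 3.04). The groups overlapped and 18 of 32 rNLS8 mice were above every control. Its log2 fold changes were 1.52 ± 0.28, 1.46 ± 0.28 and 1.76 ± 0.27 (edgeR adjusted p = 1.3e-05, 2.7e-05 and 2.5e-07).

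**Figure D2:**
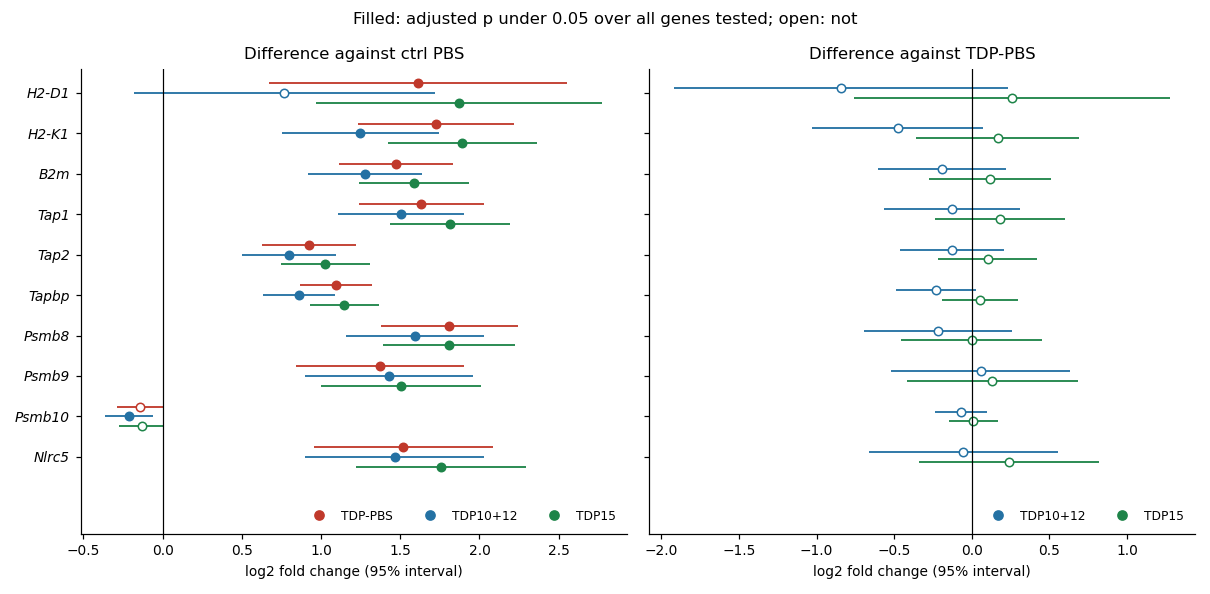
Log2 fold changes of the 10 genes with 95% intervals against ctrl PBS (left) and of the vaccinated rNLS8 groups against TDP-PBS (right), filled where the adjusted p passed 0.05 over all genes tested. On the left, 9 genes lie to the right of 0, and the interval of H2-D1 in TDP10+12 runs from -0.18 to 1.72, and every interval on the right spans 0.

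Complete separation from the controls was uncommon. For Tapbp and Psmb8 every TDP-PBS mouse was above every control, which held for 2.31% of all genes tested. For none of the 10 genes were all 32 rNLS8 mice above all 17 controls (1.16% of all genes). Some mice lay within the control range for most of the genes. TDP-PBS replicate 9 was the lowest of its group for 7 of the 10 genes and above every control for 2. TDP10+12 replicate 5 was above every control for 2 genes, with B2m at 65.9 CPM. At the other end, TDP15 replicate 3 was the highest of its group for 9 genes and above every control for all 10, and it was the only rNLS8 mouse above the control range for Psmb10, at 24.8 CPM. Leaving out any 1 of the 49 mice gave a count of called genes of 9 in TDP-PBS, between 8 and 9 in TDP10+12 and between 9 and 10 in TDP15.

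Levels of different genes were compared per kilobase of exon. In ctrl PBS mice B2m stood at 98.6 ± 22.9 CPM per kb (SD, n = 17), followed by Tapbp (20.0 ± 2.23), H2-D1 (18.6 ± 14.8), Psmb10 (15.1 ± 1.57), H2-K1 (9.93 ± 4.08), Tap2 (5.47 ± 1.40), Tap1 (3.40 ± 1.24), Psmb8 (2.91 ± 1.10), Psmb9 (1.32 ± 0.888) and Nlrc5 (0.133 ± 0.0860). H2-D1 lay within its own spread of both Tapbp and Psmb10, and Tap1 and Psmb8 were within a standard deviation of each other. In TDP-PBS mice (n = 10) the order was B2m (274 ± 68.8), H2-D1 (56.98 ± 41.2), Tapbp (42.6 ± 7.81), H2-K1 (32.8 ± 10.6) and Psmb10 (13.7 ± 1.74), with Tap1 (10.5 ± 2.49), Tap2 (10.4 ± 1.80) and Psmb8 (10.2 ± 3.27) next and within their spread of each other. Psmb9 (3.43 ± 1.22) and Nlrc5 (0.384 ± 0.110) were again the lowest.

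The constitutive partners of the immunoproteasome subunits hardly moved. Psmb5, Psmb6 and Psmb7 differed by 0.12 ± 0.06, 0.11 ± 0.06 and -0.08 ± 0.04 on the log2 scale in TDP-PBS, and none passed the test there. Psmb6 rose by 0.20 ± 0.06 in TDP10+12 and by 0.19 ± 0.05 in TDP15. Per kilobase, Psmb8 was at a median of 16.8% of Psmb5 in ctrl PBS mice, and at 64.1%, 47.0% and 48.9% in TDP-PBS, TDP10+12 and TDP15. Psmb9 was at 1.34% of Psmb6 in controls and at 3.35%, 3.17% and 3.36% in the rNLS8 groups. Psmb10 stood at 48.3% of Psmb7 in controls and at 47.0%, 41.7% and 40.4% in the rNLS8 groups.

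H2-D1 was bimodal within each group. The mice split by the neighbouring class I gene H2-Q6, which had 0 to 5 counts in 25 mice and 17 to 581 counts in 24. A limit of 10 counts was set after the data were seen. In ctrl PBS mice H2-D1 lay between 8.09 and 16.1 CPM in the 8 mice under that limit and between 35.1 and 107 in the 9 others, with no overlap. In TDP-PBS mice the ranges were 18.5 to 58.7 CPM (5 mice) and 146 to 255 (5 mice), in TDP10+12 19.2 to 48.6 (7 mice) and 69.8 to 199.7 (3 mice), and in TDP15 17.9 to 47.0 (5 mice) and 123 to 452 (7 mice). The classes did not overlap in any of the 4 groups.

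H2-K1 was less divided, and its class ranges overlapped in each group. In ctrl PBS mice it ranged from 5.62 to 19.2 CPM under the limit and from 12.9 to 28.3 above it. The ratio of H2-D1 to H2-K1 counts was 0.516 to 1.63 (median 0.986) in the 25 mice with few H2-Q6 counts and 0.895 to 4.31 (median 3.12) in the other 24. TDP15 replicate 3 had 17 H2-Q6 counts, H2-D1 at 123 CPM and H2-K1 at 137. Its ratio of 0.895 lay within the range of the mice with few H2-Q6 counts. The other mice with 10 or more H2-Q6 counts had ratios of 2.06 or more. By its H2-Q6 counts this mouse was kept with them in the ranges and correlations by class, and in the class fit unless said to be left out. The labels give no H2 haplotype for any mouse. As background, C57BL/6J carries the H2b haplotype and C3H/HeJ the H2k haplotype, the reference genome is that of C57BL/6J, and H2b mice do not transcribe H2-Ea, a class II alpha chain gene. H2-Ea had 10 to 196 counts in all 25 mice with few H2-Q6 counts. In the other 24 it ranged from 0 to 110 and was at 0 in 3, which were ctrl PBS replicate 16, TDP-PBS replicate 6 and TDP15 replicate 11. The first and the last of these had the highest H2-D1 of their group, at 107 and 452 CPM. A part of haplotype in these values was not tested.

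**Figure D3:**
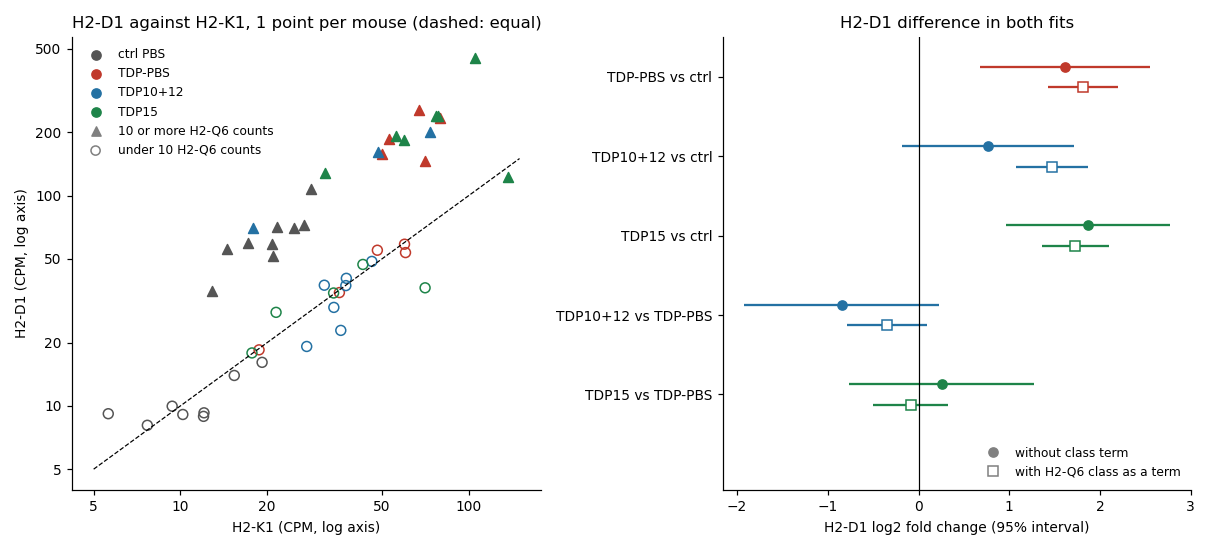
Left, H2-D1 against H2-K1 in CPM on log axes for 49 mice, with triangles for mice with 10 or more H2-Q6 counts, open circles for the others and a dashed line where both levels are equal. Right, H2-D1 log2 fold changes with 95% intervals without and with that class as a term, a class read from a gene that correlates with H2-D1 (r = 0.93).

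The classes were unevenly spread over the groups. Mice with 10 or more H2-Q6 counts were 9 of 17 in ctrl PBS, 5 of 10 in TDP-PBS, 3 of 10 in TDP10+12 and 7 of 12 in TDP15. When the class was added to the fit, a setting chosen after the data were seen, H2-D1 was higher in all 3 rNLS8 groups, by 1.81 ± 0.19 in TDP-PBS, 1.47 ± 0.20 in TDP10+12 and 1.73 ± 0.18 in TDP15 (edgeR adjusted p = 3.6e-11, 2.7e-08 and 3.2e-11). H2-Q6 was the gene closest to H2-D1 over the 49 mice (r = 0.93) and the class divided H2-D1 without overlap, so smaller standard errors follow from how the class was made and the values are no independent support for a difference in TDP10+12. H2-K1 differed by 1.78 ± 0.20, 1.47 ± 0.21 and 1.83 ± 0.20 in the same fit, and B2m by 1.47 ± 0.18, 1.28 ± 0.18 and 1.58 ± 0.17. Without the 2 rNLS8 mice that had 10 to 100 H2-Q6 counts, H2-D1 differed by 1.61 ± 0.19 in TDP10+12. These were TDP10+12 replicate 5 and TDP15 replicate 3, and control mice with 10 to 100 H2-Q6 counts were kept. H2-Q6 itself rose against ctrl PBS in TDP-PBS (2.18 ± 0.86, edgeR adjusted p = 0.035) and in TDP15 mice (2.23 ± 0.83, adjusted p = 0.024). In TDP10+12 it was at 1.27 ± 0.89 and did not pass the test (edgeR adjusted p = 0.26). The class was thus read from a gene that was itself called higher in TDP-PBS and TDP15. This limits every value of the class fit, those of H2-K1 and B2m included.

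Class I heavy chain genes are near-identical in part of their length, and the counting may have divided reads between H2-D1, H2-K1 and their H2-Q and H2-T relatives. Their separate levels are therefore uncertain.

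Vaccination was then compared with PBS within the rNLS8 mice. None of the 10 genes differed between TDP10+12 and TDP-PBS, between TDP15 and TDP-PBS or between TDP10+12 and TDP15, and 0% of all genes were called in each of these comparisons by edgeR. DESeq2 and limma-voom called none of the 10 either. At an unadjusted p under 0.05, edgeR gave 0, 0 and 3 of the 10 genes and 953, 552 and 1244 of all genes. Those 3 were H2-D1, H2-K1 and Tapbp in TDP10+12 against TDP15, at -1.10, -0.65 and -0.28. Mice with 10 or more H2-Q6 counts were 3 of 10 and 7 of 12 in these groups. With the H2-Q6 class in the fit the values became -0.26, -0.36 and -0.29. Also without the 2 rNLS8 mice that had 10 to 100 H2-Q6 counts, they were -0.18, -0.12 and -0.18. No gene was called in either class fit, and for H2-D1 the limit on what the class can show holds here too. The 3 comparisons share their groups in pairs.

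The intervals show how large a difference the data still allow. For H2-K1 the TDP10+12 mice differed from TDP-PBS by -0.48 with a 95% interval of -1.03 to 0.07, and the TDP15 mice by 0.17 (-0.36 to 0.69). B2m differed by -0.19 (-0.60 to 0.22) and 0.11 (-0.28 to 0.51). Tap1 differed by -0.13 (-0.57 to 0.31) and 0.18 (-0.24 to 0.60). Tapbp, whose spread was among the smallest, differed by -0.23 (-0.49 to 0.03) and 0.05 (-0.19 to 0.30), and Psmb8 by -0.22 (-0.69 to 0.26) and -0.00 (-0.46 to 0.45). Tap2 differed by -0.13 (-0.46 to 0.21) and 0.10 (-0.22 to 0.42), Psmb9 by 0.06 (-0.52 to 0.63) and 0.13 (-0.42 to 0.69), and Nlrc5 by -0.05 (-0.66 to 0.55) and 0.24 (-0.34 to 0.82). Psmb10 had the narrowest intervals, at -0.07 (-0.24 to 0.10) and 0.01 (-0.15 to 0.17). Without TDP15 replicate 3, the differences of TDP15 from TDP-PBS changed sign for H2-K1 (-0.0058), B2m (-0.041), Tap2 (-0.076), Tapbp (-0.034), Psmb9 (-0.053), Psmb10 (-0.040) and Nlrc5 (-0.0058), with no call.

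H2-D1 had the widest. Its difference from TDP-PBS was -0.84 (-1.92 to 0.23) in TDP10+12 and 0.26 (-0.76 to 1.28) in TDP15. With the H2-Q6 class in the fit these became -0.35 (-0.79 to 0.09) and -0.08 (-0.50 to 0.33), with no call in either fit and the same limit on what the class can show. H2-K1 differed from TDP-PBS in the class fit by -0.31 (-0.78 to 0.15) in TDP10+12 and 0.05 (-0.39 to 0.49) in TDP15.

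Genotype by sex was tested in the 27 PBS mice. No gene of 17363 was called (0%; 1097 at an unadjusted p under 0.05), and the smallest adjusted p among the 10 genes was 0.74 (edgeR). Tap2 (-0.61 ± 0.22, unadjusted p = 0.0086 from edgeR) and Nlrc5 (-1.03 ± 0.40, unadjusted p = 0.015 from edgeR) had the lowest unadjusted p-values, with a smaller genotype difference in males than in females in these data.

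The rest of the pathway was read from 7 lists of 63 genes, of which 61 were in the table and 50 were tested. In TDP-PBS mice 20 of the 50 were higher, 6 lower and 24 did not pass the test, beside 21.9% and 21.6% of all genes. TDP10+12 mice had 21 higher, 11 lower and 18 that did not pass, and for TDP15 these counts were 23, 8 and 19. All genes tested gave 20.8% higher and 20.0% lower in TDP10+12, and 23.6% and 23.2% in TDP15, and the counts of single lists below stand beside these shares too. No gene of these lists differed between rNLS8 groups by edgeR. The lists were chosen with earlier results of these data known.

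The interferon-sensing list had 17 genes, all tested, and 10 were higher and 0 lower in TDP-PBS (median log2 fold change 0.39 against -0.00 for all genes). Irf7, the interferon-induced regulatory factor, rose by 3.01 ± 0.26, Irf9, another factor of the same family, by 1.86 ± 0.15, Irf8 by 0.92 ± 0.11 and the interferon gamma receptor chain Ifngr2 by 0.83 ± 0.05. Irf1, which acts on class I and immunoproteasome promoters, rose by 0.36 ± 0.13. Ifnar1, Jak1, Jak2, Tyk2, Irf2, Irf3 and Socs1 did not pass the test. Both vaccinated groups had 10 higher, with 4 lower in TDP10+12 (Jak2, Tyk2, Irf2 and Irf3) and 3 lower in TDP15 (Jak2, Irf2 and Irf3).

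Transcripts of 6 interferon genes were at or near 0. Ifnb1, Ifna1 and Ifna5 had 0 counts in all 49 mice, which allows up to 0.165 CPM in any 1 library. Ifng, Ifna2 and Ifna4 had at most 2, 1 and 3 counts in any library. None of the 6 was tested.

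Peptide supply was mixed. In TDP-PBS 4 of 11 genes tested were higher, namely Erap1, the trimming peptidase of the endoplasmic reticulum (0.50 ± 0.10), the proteasome activator chains Psme2 (0.42 ± 0.09) and Psme1 (0.38 ± 0.08), and Psme3 (0.14 ± 0.06). Another 3 were lower, namely the cytosolic peptidases Blmh (-0.26 ± 0.05) and Npepps (-0.21 ± 0.05) and the proteasome activator Psme4 (-0.16 ± 0.05). Counts were 3 higher and 4 lower in TDP10+12 and 4 and 2 in TDP15. In TDP-PBS the 3 lower of 11 are near the share of all genes. Of the 9 loading chaperones, 0 were higher and 2 lower in TDP-PBS, which is also near the 21.6% of all genes that were lower, namely the disulfide isomerase Pdia3 (-0.18 ± 0.06) and Ganab (-0.09 ± 0.03). Tapbpl, a tapasin relative, rose in TDP10+12 (0.25 ± 0.10) and TDP15 (0.30 ± 0.09), and was at 0.21 ± 0.10 in TDP-PBS without passing the test. The general chaperones Calr (-0.04 ± 0.08) and Canx (0.04 ± 0.04) did not pass the test in TDP-PBS.

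Of the 8 factors of the SXY module and NF-kappa B, 4 were higher and 1 lower in TDP-PBS. Rfx5, which binds the X box, rose by 0.36 ± 0.06, its partner Rfxap by 0.25 ± 0.05, Nfkb1 by 0.21 ± 0.05 and Rela by 0.16 ± 0.05, and Nfyb, a Y box factor, fell by 0.59. The list of class I receptors and related receptors held 7 genes in the table. Only the inhibitory receptors Pirb (1.08 ± 0.23) and Lilrb4a (1.43 ± 0.20) had enough counts to be tested. Both were higher in each rNLS8 group. Whether Lilrb4a binds class I was not examined, so its rise is not read as that of a class I receptor. Cd8a, Klrd1, Klrc1 and Klrk1 had at most 6, 4, 6 and 5 counts in any library, and Cd8b1 at most 8.

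**Figure D4:**
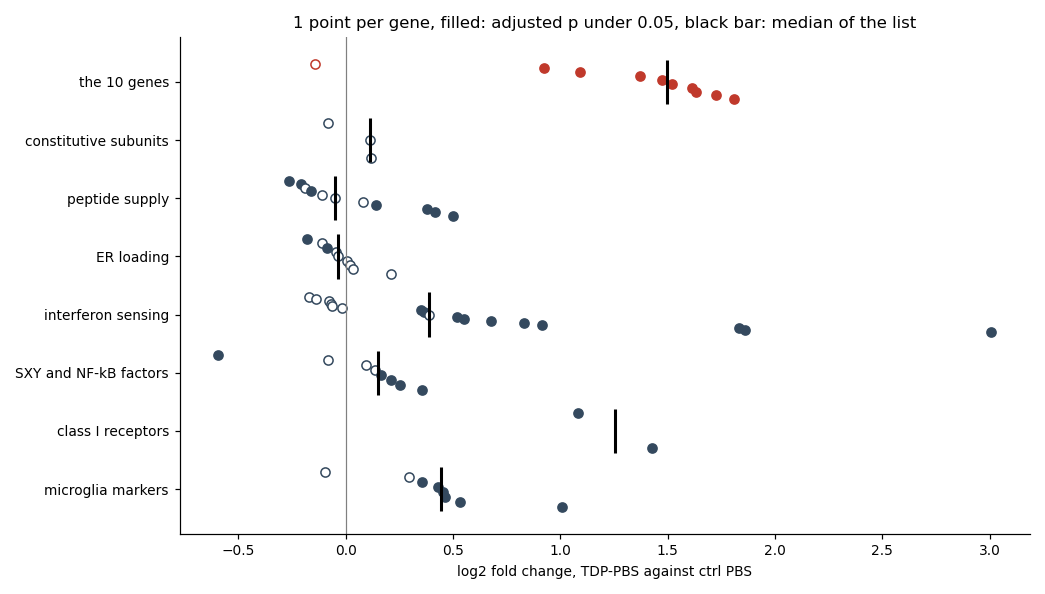
Log2 fold changes of TDP-PBS against ctrl PBS mice, with 1 point per tested gene in the 10 genes, 6 lists of the pathway and the microglia markers, filled where the adjusted p passed 0.05, and a bar at the list's median. The 10 genes have a median of 1.50, the constitutive subunits of 0.11 and the interferon-sensing list of 0.39.

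Marker lists of other cells are read beside the share of all genes called, which was 21.9% higher and 21.6% lower in TDP-PBS and between 20.0% and 23.6% in each direction in the vaccinated groups. Of the 8 microglia markers 6 were higher in TDP-PBS (median 0.44), 6 in TDP10+12 (0.31) and 6 in TDP15 (0.39), with the complement gene C1qa at 1.01 ± 0.14 in TDP-PBS. P2ry12 was lower in TDP10+12 (-0.18 ± 0.06) and TDP15 (-0.15 ± 0.06). The summed level of the 8 markers was 244 to 286 CPM in ctrl PBS, 300.0 to 430 in TDP-PBS. TDP10+12 mice had sums of 253 to 417 and TDP15 mice of 264 to 535, and TDP15 replicate 3 had the highest sum. The part of microglia in the class I values was not tested. All 6 endothelial markers were tested and 1, 0 and 1 were higher and 0, 0 and 2 lower in the 3 groups, in the order used above, with sums of 143 to 219 CPM in controls and 140 to 235 in TDP-PBS. Of the 6 astrocyte markers 1 was higher in each group, namely Gfap (1.64 ± 0.18, 1.64 ± 0.18 and 1.57 ± 0.17), and 2, 2 and 3 were lower. None of the 5 oligodendrocyte and none of the 5 red cell markers passed the test. Of the 8 neuronal markers 4 were lower in each group and 1, 0 and 1 were higher, with sums of 6088 to 7916 CPM in controls and 4574 to 5776 in TDP-PBS.

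The defining markers of lymphocytes were near 0. Cd3d, Cd3e and Cd3g had at most 6, 8 and 8 counts and Ncr1 at most 3 counts in any library. Of the T cell list only Cd4, which was lower in each group, and Lck, which was higher in each, had enough counts to be tested. Of the NK list only Eomes could be tested. It was lower in TDP-PBS (-3.23 ± 1.12) and did not pass in the others, and the list's sum reached 24.6 CPM in ctrl PBS, 0.988 in TDP-PBS, 9.48 in TDP10+12 and 14.5 in TDP15. The B cell list had 1 gene tested and none called. Of the 6 monocyte and neutrophil markers 3 were tested. Plac8 was higher in each group (2.15 ± 0.38 in TDP-PBS), and S100a9 was lower in TDP15. Choroid plexus markers were uneven between libraries. Of the 4, 0, 3 and 1 were higher in TDP-PBS, TDP10+12 and TDP15, and the highest sums were 369 CPM in controls and 1279, 1692 and 1543 in the rNLS8 groups. The part of choroid plexus in the class I values was not tested.

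The spread of the genes within groups was wide. The pooled within-group standard deviation of log2 CPM was 1.35 for H2-D1, 0.69 for H2-K1, 0.50 for B2m and 0.31 for Tapbp. It exceeded that of all 500 genes nearest in mean level for H2-D1, and that of 94.8% to 99.6% of them for the other 8 genes that rose in TDP-PBS. Psmb10, at 0.19, was above 65.4% of its neighbours in level. These percentiles describe the 49 mice and carry no test.

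Mice with more of 1 member tended to have more of the others. After each mouse's group mean was removed, the median Pearson correlation over 49 mice was 0.59 for the 36 pairs without H2-D1 (0.32 to 0.74), and 0.21 for the 9 pairs with H2-D1 (-0.14 to 0.75). Its highest partner was H2-K1 and its lowest Tap2. Both genes of a pair were measured in the same libraries and most of the genes share a region, and the values are a description.

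Of the relations between pairs of these genes or with markers, 28 were tested within groups by permutation with 100000 resamples and Benjamini-Hochberg adjustment. Psmb9 and Tap1, which start from the shared stretch shown above, correlated in TDP15 (Pearson r = 0.91, permutation p = 1e-05, the smallest these permutations can give, adjusted p = 0.00028; Spearman rho = 0.96, adjusted p = 0.00014). They did not pass in ctrl PBS (r = 0.41), TDP-PBS (0.74) or TDP10+12 (0.46), where the adjusted permutation p was 0.19, 0.056 and 0.23. Without the 2 TDP15 mice farthest in Tap1, r was 0.82. Psmb8 and Psmb9 correlated in TDP15 (r = 0.84, adjusted permutation p = 0.0051, rho = 0.89) with r = 0.73 without the 2 farthest mice. Nlrc5 and B2m correlated in ctrl PBS (r = 0.72, adjusted permutation p = 0.0051, rho = 0.65) and in TDP15 (r = 0.85, adjusted permutation p = 0.00485, rho = 0.83), and r was 0.55 and 0.65 without the 2 farthest.

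The mean of the 10 genes correlated with the summed microglia markers in TDP15 (r = 0.83, adjusted permutation p = 0.0051, rho = 0.70), where r was 0.57 without the 2 farthest mice. In ctrl PBS, TDP-PBS and TDP10+12 r was 0.35, 0.69 and 0.46 and the adjusted permutation p was 0.23, 0.056 and 0.23. H2-Ea and H2-K1 did not pass the test in any group (r from -0.31 to 0.14).

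H2-D1 fell into classes, so its relations were computed within classes of at least 6 mice, 8 tests in all with exact permutation. H2-D1 and H2-K1 correlated in the 9 ctrl PBS mice with 10 or more H2-Q6 counts (r = 0.84, exact p = 0.0020, adjusted p = 0.015, rho = 0.87, r = 0.75 without the 2 farthest mice). In the 8 control mice under the limit r was 0.77 (exact p = 0.023, adjusted p = 0.061, rho = 0.64). In the 7 TDP10+12 mice under the limit r was 0.76 (exact p = 0.045, adjusted p = 0.090), and it was 0.04 without the 2 farthest mice. In the 7 TDP15 mice above the limit r was 0.33 and 0.95 without the 2 farthest, so the value rests on those mice. H2-Ea and H2-D1 gave no single pattern. Their r was 0.86 in the 8 control mice under the limit (exact p = 0.0038, adjusted p = 0.015, rho = 0.79 with an adjusted exact p of 0.11, r = 0.58 without the 2 farthest mice). It was -0.16 in the other 9 control mice (adjusted exact p = 0.69), 0.66 in the 7 TDP10+12 mice under the limit (adjusted exact p = 0.18) and -0.60 in the 7 TDP15 mice above it (adjusted exact p = 0.20), where it was 0.88 without the 2 farthest.

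The genes most like the members over the 49 mice, by correlation after removing group means, differed between the members. For H2-D1 the 5 closest were all annotated on chromosome 17, namely H2-Q6 (r = 0.93), H2-D4 (0.90), H2-Q7 (0.90), H2-Q5 (0.86) and H2-DMb1 (0.80). For H2-K1 they were H2-T23 (0.86), H2-T22 (0.80), H2-K2 (0.77), Oas3 (0.75) and H2-DMb1 (0.74). For B2m they were the microglial genes Ctss (0.83), C1qa (0.82) and Tmem119 (0.79), with Lgals3bp (0.79) and H2-Q4 (0.79). Tap1 had Ifit3 (0.79), Parp12 (0.78), Uba7 (0.78), Oasl2 (0.77) and Iigp1 (0.77). Tap2 had Irgm1 (0.76), Rsad2 (0.76), Irf7 (0.76), Parp9 (0.74) and Icam1 (0.72). These last 2 sets are mostly genes known for their induction by interferons.

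Tapbp was closest to Shisa5 (0.84), Stat2 (0.81), Irf7 (0.81), Xaf1 (0.80) and Irf9 (0.80). Psmb8 was closest to the guanylate-binding proteins Gbp2 (0.79), Gbp6 (0.77) and Gbp10 (0.77), with Cd274 (0.79) and Irgm1 (0.76), and Psmb9 to Irgm2 (0.69), Gbp5 (0.67), Ifit3b (0.64), Tnfaip8l2 (0.63) and Ptpn6 (0.62). Nlrc5 was closest to H2-Q4 (0.82), Irgm2 (0.80), Tgtp2 (0.78), Iigp1 (0.78) and Gbp2 (0.76). Psmb10, which did not rise with genotype, still followed interferon-induced genes from mouse to mouse within groups, with Xaf1 (0.76), Ifit3 (0.75), Parp12 (0.75) and Ifit1 (0.74) among the closest. For the mean of the 10 genes the closest included H2-T23 (0.90), Ifit3b (0.88), Oasl2 (0.87), H2-Q4 (0.87), Parp12 (0.86), Oas3 (0.86), Ifit3 (0.85), Irgm1 (0.85) and Xaf1 (0.84).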

How the data were processed

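Neocortical RNA of 49 mice was read by RNA-seq. The authors deposited 1 table of gene-level counts, which may be rounded estimated counts. Their processing notes name HISAT, HISAT2, Bowtie, Bowtie2 and RSEM without versions and the mouse build mm10. The annotation, the strand setting and the treatment of multi-mapped reads are not given in the sources used here. Antisense transcripts overlap Psmb8 and Tap2 (Gm20496), Tap2 (Gm15821), Tapbp (Gm19412) and Nlrc5 (9330175E14Rik), and 1 Psmb9 transcript model overlaps Tap1, so reads there cannot be assigned by strand.

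Counts were filtered with filterByExpr (minimum 10), scaled by TMM (factors 0.929 to 1.06) and fitted with edgeR 4.0.16 (glmQLFit, glmQLFTest, R 4.3.3) over all 49 mice and 4 groups with no covariates. Comparisons were two-sided at an adjusted p of 0.05. Groups came from the labels, and replicate numbers only name mice. Within groups, 292 pairs of libraries were compared and none agreed within sampling noise (lowest chi-square per degree of freedom 6.85). Alternatives were DESeq2 1.42.0, limma-voom 3.58.1, other scalings and filters, sex, each pair of groups alone and each mouse left out. Also counted among them were a fold change limit and the fits with the H2-Q6 class, which were added after the data were seen. Fits were tested on simulated counts. Per-kilobase levels used exon lengths of GENCODE vM21, and sequences and positions came from RefSeq. Intervals of fold changes include the spread between mice, and floors of 3 counts cover counting error only.

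All 10 genes are named in every comparison. Other pathway genes are named by the largest changes in TDP-PBS against ctrl PBS, up to 5 a list, with Irf1, Irf9, the constitutive subunits and H2-Ea. A gene that this rule names is not reported here. The exceptions named for their counts, direction or level were chosen after their values were seen. The members and lists were chosen with earlier results of these data known.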

Additional observations from a re-analysis of the deposited data

Results flagged for a closer look

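In the 20 sets of values tested (10 genes in the TDP-PBS and TDP10+12 groups, of 10 mice each), 1 mouse stood apart from its group. Psmb8 in TDP10+12 replicate 3 was at 28.9 CPM, and the gap to the next mouse was 0.47 of the group's range. Chance flags about 1 in 20 such groups. Groups of 12 and 17 mice were not tested in this way.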

How the results depend on the processing

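No paired analysis was possible because the labels give no replicate number shared between groups. Over the alternatives other than leaving out a mouse, 566 of 588 values of the 10 genes kept direction and side of the threshold, and no difference from ctrl PBS changed sign. The 18 sign changes were all between rNLS8 groups, where nothing was called. With the H2-Q6 class in the fit, H2-D1 in TDP10+12 against ctrl PBS became called (1.47) and H2-D1 in TDP15 against TDP-PBS became -0.084. With the class and without the 2 mice of intermediate counts, H2-D1 in TDP10+12 was called at 1.61, and Psmb10 against ctrl PBS was lost in TDP10+12 (-0.17, adjusted p = 0.061) and called in TDP15 (-0.17, adjusted p = 0.033). In that setting TDP15 against TDP-PBS gave -0.045 for H2-D1, -0.081 for H2-K1, -0.042 for B2m, -0.072 for Tap2, -0.034 for Tapbp, -0.056 for Psmb9, -0.041 for Psmb10 and -0.0078 for Nlrc5. TDP10+12 against TDP15 gave 0.13 for Psmb8, 0.16 for Psmb9, 0.0033 for Psmb10 and 0.015 for Nlrc5, and Nlrc5 in TDP10+12 against TDP-PBS was 0.0067. With limma-voom, TDP15 against TDP-PBS gave -0.0019 for H2-D1 and -0.0096 for Tapbp, and Psmb9 in TDP10+12 against TDP15 was 0.0083. With sex as a covariate, Nlrc5 in TDP10+12 against TDP-PBS was 0.048. H2-D1 in TDP10+12 against ctrl PBS had an adjusted p between 1.3e-09 and 0.27 over its 10 alternatives. The low end came from the class fit without the 2 mice of intermediate counts. In the 8 alternatives without the class, H2-D1 was not called there. The class was read from a gene that follows H2-D1, so the class fits are no independent support for this difference.

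Leaving out each mouse kept 2901 of 2940 values. The 36 sign changes were again between rNLS8 groups and without a call, and TDP15 replicate 3 gave the lowest value for most genes in TDP15 against TDP-PBS. In that comparison the ranges were -0.056 to 0.45 (H2-D1), -0.0058 to 0.26 (H2-K1), -0.041 to 0.18 (B2m), -0.076 to 0.16 (Tap2), -0.034 to 0.12 (Tapbp), -0.28 to 0.079 (Psmb8), -0.053 to 0.21 (Psmb9), -0.040 to 0.046 (Psmb10) and -0.0058 to 0.31 (Nlrc5). They were -0.070 to 0.14 (Psmb9) and -0.23 to 0.036 (Nlrc5) in TDP10+12 against TDP-PBS, and -0.39 to 0.067 (Psmb8) and -0.20 to 0.11 (Psmb9) in TDP10+12 against TDP15. The other exceptions were Psmb10 against ctrl PBS in TDP10+12 without replicates 5 and 8, and in TDP15 without replicate 3. Counts of called genes among the 10 were 7 to 9, 6 to 10 and 7 to 10 over the alternatives, in TDP-PBS, TDP10+12 and TDP15 against ctrl PBS. At an absolute log2 fold change over 1, pathway genes called fell from 26, 32 and 31 to 5, 4 and 6, since fewer genes can pass both limits. Of 28 correlations 8 passed, and 6 to 8 under the alternatives. Those that passed include H2-K1 with H2-D1 over whole groups in ctrl PBS, TDP-PBS and TDP15, which mix the H2-Q6 classes. Depth limits Nlrc5, Psmb9 and the lymphocyte and interferon genes.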
